A study of Homo sapiens with 2 samples.

Results

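The heat shock protein genes were examined in hypoxic MDA-MB-231 cells, a line long in culture that was derived from a human breast cancer. Members were protein-coding genes whose symbol began with HSPA, HSPB, HSPD, HSPE or HSPH and a digit, with HSP90 and a letter, or with DNAJA, DNAJB or DNAJC and a digit, and which had a transcript cluster (the group of probes that reads 1 transcript) in the values used here. This gave 16 members among 11916 protein-coding genes: 11 of the HSPA family, HSPB1, HSPB3, HSPB8, HSPD1 and HSPH1. The HSPA family is incomplete here, with 11 of 14 listed genes named, and HSPA5 and HSPA8 are not among the members. The rule also looked for DNAJ, HSP90 and HSPE symbols, and 0 of each were found among the named clusters, so genes with these symbols are not analysed here. The members are therefore called heat shock protein genes below.

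One array was hybridised with RNA of cells given compound 1, a molecule named only by that code, and 1 array with RNA of cells given a miR-544 antagomir, a modified antisense strand that pairs with a microRNA and keeps it from its targets. Per the labels, either agent was given 24 hours before the cells entered hypoxia at below 1% oxygen, which lasted 5 days. The design text mentions 3 samples, pooled ahead of the array step. With 1 array per treatment and no array of untreated or normoxic cells, no difference has a replicate error or a test, and every difference below is that of these 2 arrays, as compound 1 minus antagomir on the log2 scale.

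Heat shock proteins are chaperones, which bind unfolded proteins and help them fold, reach their compartment or be degraded. HSPA proteins (the HSP70 family) cycle on and off their substrates with ATP, HSPH and HSPA4-type proteins exchange their nucleotide, small HSPB proteins hold unfolded proteins in solution, and HSPD1 (HSP60) forms a folding chamber in the mitochondrial matrix. Some members are made at all times, and others are switched on by the transcription factor HSF1, which binds heat shock elements, inverted repeats of the letters GAA, in their promoters.

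The antagomir is named for miR-544, and the mature sequence of hsa-miR-544a is printed to show that target, with the seed (bases 2 to 8) in capitals, as given by RefSeq for GRCh38.p14 at chr14:101048712-101048733 on the plus strand. Sites for this seed in the members' transcripts were not analysed here.
hsa-miR-544a: aUUCUGCAuuuuuagcaaguuc

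The promoters of the stress-inducible HSP70 genes HSPA1A and HSPA1B are shown because the genes have nearly the same sequence and the arrays read them with 5 clusters each. The 250 bases before each start site are given 5′ to 3′, from RefSeq on GRCh38.p14, plus strand, with the heat shock element core (GAANNTTC or TTCNNGAA) in capitals. Shifted by 1 base, 235 of 249 bases were identical (94.4%).
HSPA1A (chr6:31815293-31815542): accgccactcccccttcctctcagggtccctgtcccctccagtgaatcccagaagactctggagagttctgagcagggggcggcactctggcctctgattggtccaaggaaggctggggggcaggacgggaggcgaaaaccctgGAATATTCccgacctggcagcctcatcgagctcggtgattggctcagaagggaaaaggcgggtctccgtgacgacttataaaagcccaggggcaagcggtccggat
HSPA1B (chr6:31827488-31827737): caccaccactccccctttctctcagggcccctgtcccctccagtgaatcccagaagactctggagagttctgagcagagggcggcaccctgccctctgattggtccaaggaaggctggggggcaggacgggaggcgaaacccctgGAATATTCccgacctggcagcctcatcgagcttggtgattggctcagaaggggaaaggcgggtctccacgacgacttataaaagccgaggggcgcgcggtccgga

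The next 30-base windows show the elements of members that lay at opposite ends of the differences (HSPD1 and HSPA6) and of 2 small heat shock protein genes, in the same notation and from the same source.
HSPD1 (chr2:197500061-197500090, minus strand): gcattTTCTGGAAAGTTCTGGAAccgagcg
HSPA6 (chr1:161524457-161524486, plus strand): gcggaaaggTTCGCGAAAGTTCgcggcggc
HSPB1 (chr7:76302480-76302509, plus strand): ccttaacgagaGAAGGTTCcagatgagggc
HSPB8 (chr12:119178832-119178861, plus strand): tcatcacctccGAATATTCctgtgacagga

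A gene was taken as measured when the higher of its 2 values reached the median level of all clusters, a log2 level of 5.60. Of the 16 members 13 were measured, and HSPA6, HSPB3 and HSPB8 were under this level on both arrays. The 13 measured members lay close together on the 2 arrays. Their median difference was -0.047, against -0.041 for all 9584 measured protein-coding genes, and 11 of 13 (84.6%) were within 0.15 of 0, against 61.0% of all. The 61.0% is not matched for level, and differences were narrower at high levels. Protein-coding genes within 0.5 of the level of HSPA9 had a robust SD of differences of 0.096. Those near the lower level of HSPA12A had 0.19. Whether the members lay closer than genes of like level was not tested. On the compound 1 array 9 of 13 members (69.2%) were lower, where 58.9% of all measured protein-coding genes were. After centring 11 of 13 were lower (66.2% of all), after quantile normalization 6 of 13 (49.5% of all) and after cyclic loess 6 of 13 (51.5% of all), so a shared direction depended on the scaling.

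**Figure D1:**
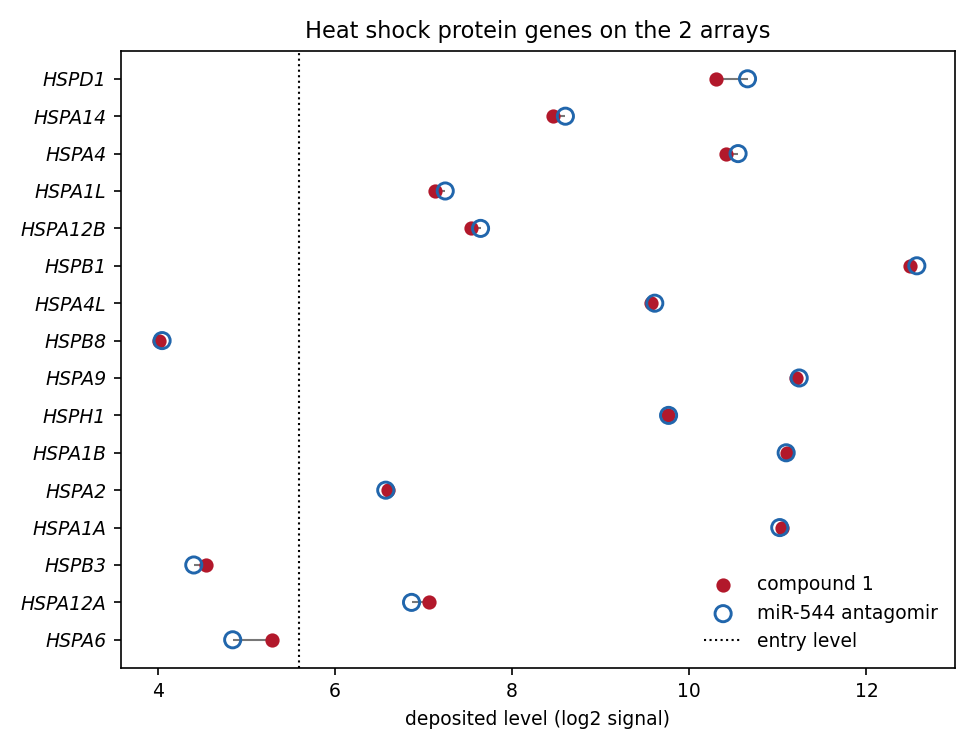
Deposited level (log2 signal, horizontal axis) of each of the 16 heat shock protein genes on the compound 1 array (filled) and the miR-544 antagomir array (open), 1 array each, with genes ordered by difference and a dotted line at the entry level of 5.60. The symbols overlap for most genes, HSPD1 lies lower on the compound 1 array (10.31 against 10.66), and HSPA6, HSPB3 and HSPB8 lie under the entry level.

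HSPD1 had the largest difference of the measured members, at 10.31 with compound 1 and 10.66 with the antagomir. It was lower by 1.28-fold (-0.35), and 3.82% of measured protein-coding genes had a lower difference. Protein-coding genes within 0.5 of its level had a robust SD of differences of 0.11. It was the only member past 1.2-fold among the 13 (7.69%), where 9.12% of all measured protein-coding genes were past 1.2-fold lower and 5.23% past 1.2-fold higher. HSPD1 stayed past 1.2-fold under each scaling, at -0.38 after centring, -0.28 after quantile normalization and -0.28 after cyclic loess. Past 1.5-fold, 0 members were lower and 0 higher, against 0.365% and 0.167% of all measured protein-coding genes.

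HSPA9, which encodes the mitochondrial HSP70 that draws imported proteins into the matrix, was at 11.21 with compound 1 and 11.24 with the antagomir. Its difference of -0.035 turned to 0.035 after quantile normalization and 0.038 after cyclic loess. The members of the mitochondrial matrix thus had unlike values on these arrays, HSPD1 being lower and HSPA9 nearly level.

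The stress-inducible HSP70 genes HSPA1A and HSPA1B hardly differed. HSPA1A was at 11.05 with compound 1 and 11.02 with the antagomir (0.030), and HSPA1B at 11.11 with compound 1 and 11.09 with the antagomir (0.011). HSPA1A was higher on the compound 1 array in all 5 of its clusters, by 0.030 to 0.047, but 3 of the 5 hold the same pair of values and so count once, and after centring its difference was 0.0002. HSPA1B was lower in 3 of its 5 clusters and higher in 2, with differences from -0.037 to 0.052, and its sign turned to -0.019 after centring. These genes encode nearly the same protein, so clusters of one may also read signal of the other, which was not tested. HSPA1L, their neighbour in the major histocompatibility region, is made mainly in testis. It was at 7.13 with compound 1 and 7.25 with the antagomir (-0.12), and the difference was below 0 in all 5 clusters, from -0.12 to -0.018, 3 of them again with the same values.

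**Figure D2:**
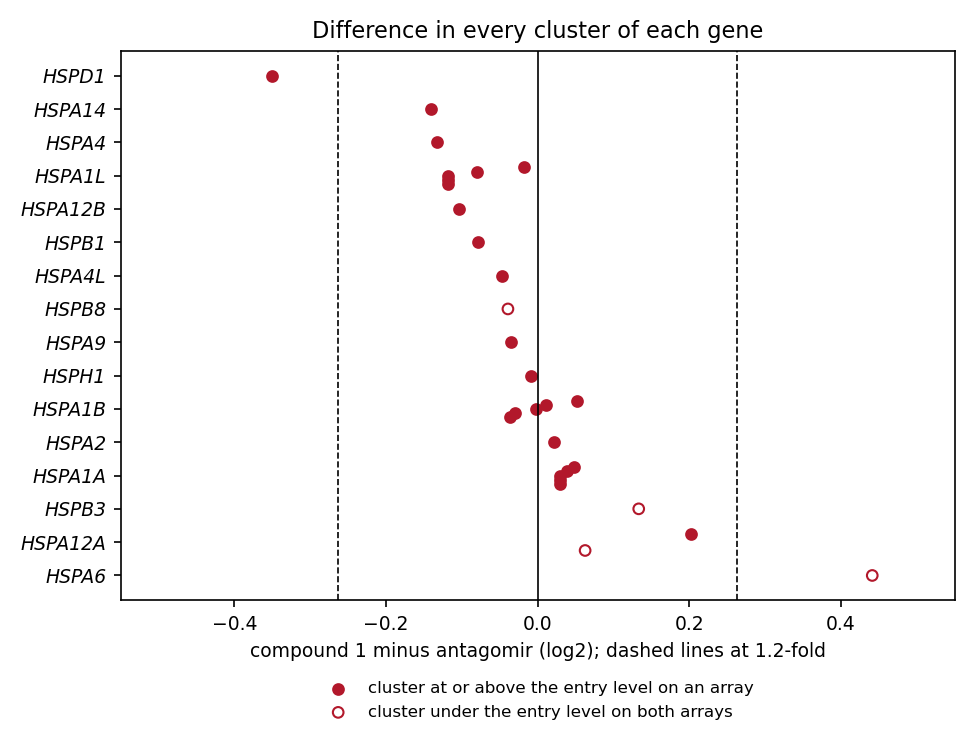
Difference of compound 1 minus antagomir (log2, horizontal axis) in each of the 29 transcript clusters of the 16 genes, 1 point per cluster, open where neither array reached the entry level. The 5 HSPA1B clusters straddle 0, and only the HSPD1 and HSPA6 clusters lie beyond the dashed lines at 1.2-fold.

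HSPA4, HSPA4L and HSPH1 encode the large HSP110-type relatives of HSP70, which act as its nucleotide exchange factors. HSPA4 was at 10.42 with compound 1 and 10.55 with the antagomir (-0.13). The heat-inducible HSPA4L was at 9.57 with compound 1 and 9.61 with the antagomir (-0.047), and HSPH1, also induced by heat, at 9.76 with compound 1 and 9.77 with the antagomir (-0.0087). HSPA4 kept its sign under each scaling, while HSPA4L and HSPH1 turned to 0.027 and 0.066 after quantile normalization.

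HSPA14, whose product works at the ribosome, was at 8.46 with compound 1 and 8.60 with the antagomir (-0.14). HSPA2, needed in male germ cells, was at 6.60 with compound 1 and 6.58 with the antagomir (0.022), and its sign turned to -0.0076 after centring. The distant HSP70 relatives HSPA12A and HSPA12B lay apart. HSPA12A was higher on the compound 1 array, at 7.07 against 6.87 with the antagomir (0.20), the highest difference of the measured members, while HSPA12B was at 7.54 with compound 1 and 7.65 with the antagomir (-0.10). A second HSPA12A cluster, under the entry level on both arrays, had 4.92 with compound 1 and 4.86 with the antagomir (0.063). The HSPA12A difference of 0.20 compares with a robust SD of 0.19 among the 2373 protein-coding genes within 0.5 of its level.

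Of the small heat shock protein genes HSPB1 (HSP27) was measured, at 12.49 with compound 1 and 12.57 with the antagomir (-0.079). It was lower under each scaling, at -0.11 after centring, -0.035 after quantile normalization and -0.011 after cyclic loess. HSPB8, a partner of the co-chaperone BAG3, was at 4.01 with compound 1 and 4.05 with the antagomir, and the muscle gene HSPB3 at 4.54 with compound 1 and 4.41 with the antagomir, all under the entry level.

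**Figure D3:**
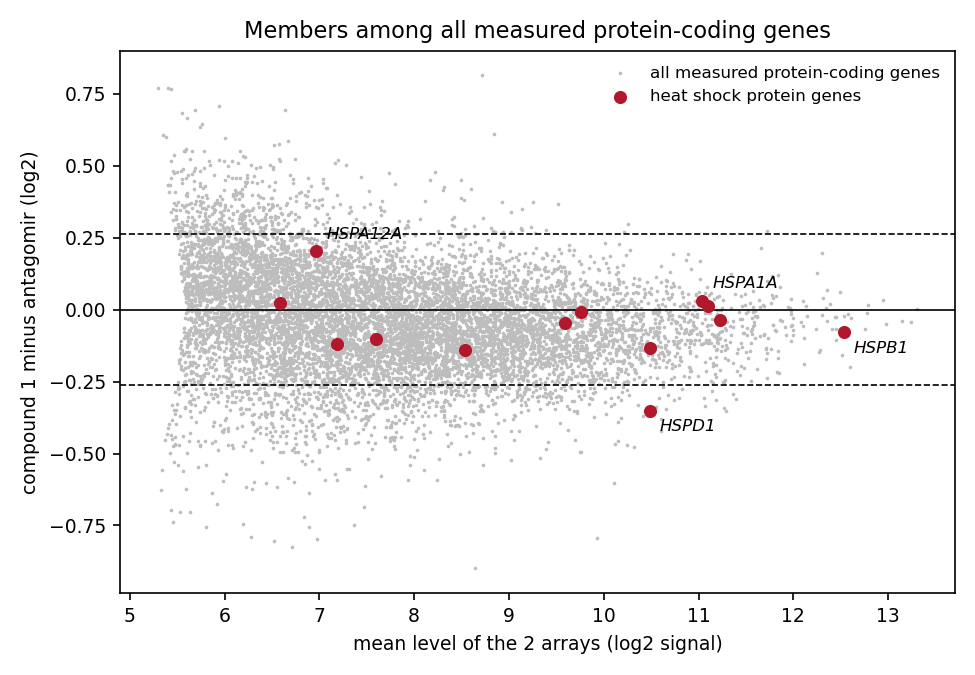
Difference of compound 1 minus antagomir (log2, vertical axis) against the mean level of the 2 arrays (log2 signal, horizontal axis) for 9584 measured protein-coding genes (grey) and the 13 measured heat shock protein genes (red), with dashed lines at 1.2-fold. HSPD1 lies at -0.35 below the lower line, and the other 12 lie between the lines.

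HSPA6, an HSP70 gene that is nearly silent without stress and strongly induced by heat, had the largest difference of all 16 members, although under the entry level. It was at 5.29 with compound 1 and 4.85 with the antagomir, a difference of 0.44 (1.36-fold). Its neighbouring near-copy, the pseudogene HSPA7, was at 5.56 with compound 1 and 5.10 with the antagomir (0.46). The cluster of one may also read signal of the other, which was not tested. With no filter on level, HSPA6 was the only one of 16 members past 1.2-fold higher and HSPD1 the only one past 1.2-fold lower, where 8.04% of 11916 protein-coding genes were past 1.2-fold higher and 9.05% past 1.2-fold lower. The difference of HSPA6 was 0.41 after centring, 0.40 after quantile normalization and 0.37 after cyclic loess. The median difference of the lowest decile of clusters was 0.094 and that of the highest decile -0.070. The part of this trend in the HSPA6 value was not tested.

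Promoter windows of 250 bases were held for 14 of the 16 members, 18 windows in all, since some genes have several start sites. The 3-unit heat shock element GAANNTTCNNGAA, searched on both strands, was found in HSPA6 and HSPD1, in 2 of 18 windows, against 0.441% of 35116 windows of all genes. These genes differed in opposite directions, 0.44 for HSPA6 and -0.35 for HSPD1. In HSPD1 the element begins 245 bases before its downstream start site and spans 18 bases with a further unit, and in HSPA6 it begins 74 bases before the start. The 2-unit core GAANNTTC or TTCNNGAA, which any 3-unit element also holds, was found in 9 of 18 windows, against 11.6% of all. HSPA1A and HSPA1L share 1 such match, since they are read in opposite directions from windows that overlap by 241 bases. ACGTG, the core letters of the element bound by hypoxia-inducible factors, was found on either strand in 4 of 18 windows (HSPA4, HSPA4L, HSPA9 and HSPD1), against 18.5% of all. A match describes letters only.

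The partners of these chaperones were read from 7 lists of 100 genes in all, grouped by role. Of these genes 66 were named here and 65 measured. On these arrays 43 of 65 genes were lower on the compound 1 array (66.2%, median -0.063), against 58.9% of all measured protein-coding genes. Past 1.2-fold, 8 were lower (12.3%) and 0 higher, where 9.12% of all were lower and 5.23% higher. After centring 52 of 65 were lower (66.2% of all), after quantile normalization 30 (49.5% of all) and after cyclic loess 33 (51.5% of all). Those past 1.2-fold lower then numbered 9 (13.8%, against 12% of all), 3 (4.62%, against 6.38%) and 7 (10.8%, against 7.20%) in the same order. After quantile normalization 1 gene, of the HSF list, was past 1.2-fold higher, against 551 of all 9586. After cyclic loess 1 gene of that list was, against 476 of all 9585. Here too the direction depended on the scaling.

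Of 13 measured genes listed as co-chaperones of HSP90, 10 were lower (median -0.088), against 58.9% of all measured protein-coding genes. After centring 12 of 13 were lower (66.2% of all). After quantile normalization (49.5% of all) and after cyclic loess (51.5% of all) 8 of 13 were lower. Of the 13 genes, TRAP1 encodes a mitochondrial HSP90 protein and not a co-chaperone, and was at 10.23 with compound 1 and 10.45 with the antagomir (-0.22). Past 1.2-fold lower were 3 of the 13, against 9.12% of all. This became 1 after quantile normalization (6.38% of all) and 2 after cyclic loess (7.2% of all). CDC37L1, a relative of the kinase-loading co-chaperone CDC37, was lowest, at 5.56 with compound 1 and 6.02 with the antagomir (-0.46). It reached the entry level of 5.60 only on the antagomir array, where it was higher, so the filter favoured a lower difference. It is counted in the 3 of 13 past 1.2-fold lower. The cyclophilin gene PPID was at 7.89 with compound 1 and 8.20 with the antagomir (-0.32). STIP1, which encodes the adaptor that links HSP70 to HSP90, was at 8.70 with compound 1 and 8.97 with the antagomir (-0.27). NUDC, which encodes a nuclear movement factor that works with HSP90, was highest, at 9.26 with compound 1 and 9.20 with the antagomir (0.053).

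Among co-chaperones of HSP70, 7 of 10 were lower (median -0.090), against 58.9% of all measured protein-coding genes. After centring 8 were lower (66.2% of all), after quantile normalization 6 (49.5% of all) and after cyclic loess 7 (51.5% of all). The median shrank to -0.025 after quantile normalization and -0.018 after cyclic loess. Past 1.2-fold lower were 2 of the 10, against 9.12% of all. This became 1 after quantile normalization (6.38% of all) and 3 after cyclic loess (7.2% of all). These 2, in the deposited values, were the nucleotide exchange factor genes BAG4 and BAG1, with BAG4 at 7.16 with compound 1 and 7.47 with the antagomir (-0.31) and BAG1 at 6.44 with compound 1 and 6.73 with the antagomir (-0.29), while the stress-inducible BAG3 was at 9.24 with compound 1 and 9.33 with the antagomir (-0.089). GAK, an auxilin-type kinase that removes clathrin coats, was highest at 0.13. Of 13 genes of mitochondrial protein import and quality control 10 were lower (76.9%), against 58.9% of all measured protein-coding genes. After centring 13 were lower (66.2% of all), after quantile normalization 7 (49.5% of all) and after cyclic loess 9 (51.5% of all). The import receptor gene TOMM20 was lowest, at 9.91 with compound 1 and 10.24 with the antagomir (-0.34). HTRA2, a protease gene, was highest at 0.022.

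Of 6 prefoldin genes, which pass unfolded actin and tubulin to a chaperonin, 4 were lower, against 58.9% of all measured protein-coding genes. They ran from VBP1 at -0.28 to PFDN5 at 0.18. After centring 4 were lower (66.2% of all). After quantile normalization (49.5% of all) and after cyclic loess (51.5% of all) 2 were lower. Of 19 genes of folding and stress in the endoplasmic reticulum 11 were lower (57.9%, against 58.9% of all). After centring 13 were lower (66.2% of all). After quantile normalization (49.5% of all) and after cyclic loess (51.5% of all) 6 were lower. The disulfide oxidase gene ERO1A was lowest, at 11.11 with compound 1 and 11.46 with the antagomir (-0.35), and MANF, a secreted stress protein gene, highest, at 8.47 with compound 1 and 8.27 with the antagomir (0.19). HSF1, the master factor of the heat shock response, was at 8.80 with compound 1 and 8.60 with the antagomir (0.20). Of the 4 measured genes of the HSF list 1 was lower, HSF4 at -0.13, against 58.9% of all. After centring 2 were lower (66.2% of all). After quantile normalization (49.5% of all) and after cyclic loess (51.5% of all) 1 was lower and 1 was past 1.2-fold higher. The chaperonin TRiC list had 0 named genes and is not analysed here.

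**Figure D4:**
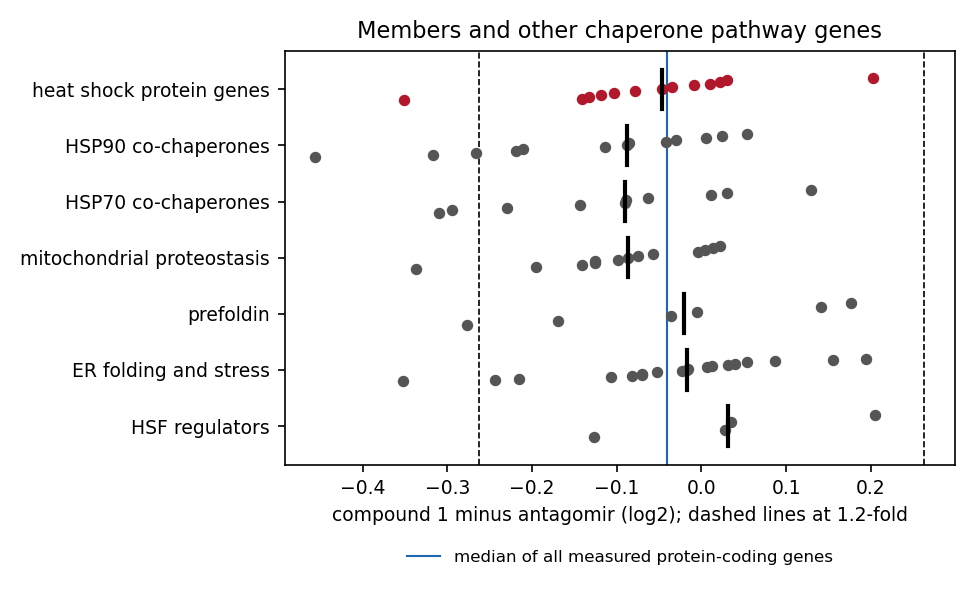
Differences of compound 1 minus antagomir (log2, horizontal axis) for the 13 measured heat shock protein genes (red) and for 6 lists of other chaperone pathway genes (grey), 1 point per gene, with a black bar at each median and a blue line at the median of all measured protein-coding genes (-0.041). CDC37L1 lies farthest left at -0.46, and 0 points lie past 1.2-fold higher.

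Markers of the line were read where they were named, which held for 3 of 5 listed as high and 3 of 4 listed as low. CAV1, LGALS1 and CDH1 were not named here, so the values below do not establish the identity of the line. VIM, CD44 and ANXA1, which this mesenchymal-like line makes in quantity, were at 9.04 to 12.56 with compound 1 and 9.08 to 12.58 with the antagomir, while the hormone receptor genes ESR1 and PGR were under the entry level on both. EPCAM, listed with these as a gene of low level in the line, reached the entry level, at 7.05 with compound 1 and 6.91 with the antagomir. Of 4 leukocyte, 3 erythroid and 3 endothelial markers, 1, 0 and 2 were named here. CD68, which encodes a lysosomal protein, was at 11.59 with compound 1 and 11.60 with the antagomir, VWF at 5.81 with compound 1 and 5.74 with the antagomir, and PECAM1 did not reach the entry level.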

How the data were processed

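RNA of pooled MDA-MB-231 cells was read on 2 arrays from biotin-labelled cRNA, per the labels. The deposited values are 1 log2 signal per transcript cluster and array (0.37 to 14.20 for compound 1, 0.61 to 14.19 for the antagomir, medians 5.62 and 5.59). No source used here gives their log base, background correction or normalization, and base 2 is assumed from the range. Of 53617 clusters 16098 had 1 gene symbol in the platform table, 0 several, and 37519 are unnamed here. All symbols matched RefSeq (GRCh38.p14), which gave gene types, and 0 needed an update.

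Clusters entered if the higher of their values was at or above the 50th percentile of cluster means, and the entering cluster with the highest mean stood for its gene. No scaling was applied. Counts past 1.2-fold and 1.5-fold were set beside all measured protein-coding genes, and the robust SD is the scaled median absolute deviation. With 1 array per treatment no test was made. The rule for named genes took all measured heat shock protein genes, members with a described promoter element, and the highest and lowest of each list. Other names (HSPA7, HSPB3, PPID, STIP1, BAG1 and BAG3) were chosen after their values were seen. TRAP1 was also named outside this rule. Planned protein features were not run. The members and lists were chosen with earlier results of these data known. Functions were tested on simulated arrays with planted shifts larger than any member difference and counted at 1.5-fold, so that test does not bear on the 1.2-fold counts. Alternatives were 3 scalings, 3 filters, 2 cluster choices and 1 other fold. Tools were Python 3.11.15, numpy 2.4.6, pandas 2.3.3, matplotlib 3.10.9, R 4.3.3 and limma 3.58.1 (cyclic loess). Precision is limited by there being 1 array per treatment.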

Additional observations from a re-analysis of the deposited data

How the results depend on the processing

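The median difference of the 13 measured members (-0.047; -0.076 after centring) turned to 0.023 under quantile normalization and 0.015 under cyclic loess, and that of the 10 HSPA genes (-0.041) to 0.025 and 0.0205. The median of all measured protein-coding genes moved in the same direction but less, from -0.041 to 0.0015 and -0.0063. The median of the members thus went from below it to above it. These medians moved by less than 0.05 under centring, the 3 other filters, the 2 other cluster choices and the omission of HSPA1A, HSPA1B and HSPA1L, which was chosen after seeing the data. At 1.5-fold 0 members were lower, against 1 at 1.2-fold, and with no filter 1 member (HSPA6) was past 1.2-fold higher, against 0. HSPD1 ranged from -0.38 to -0.28. Of 112 values of single members under alternatives, 111 moved by less than the robust SD of genes of like level, and HSPB1 moved to -0.011 after cyclic loess. The 112 include values that could not move, since the other filters and the omission left the value of each remaining member as it was. Only the 3 scalings and the cluster choice could move a value. Of the 13 members 5 took the other sign in 1 or more alternatives: HSPA1B, HSPA2, HSPA4L, HSPA9 and HSPH1. Of the 16 members 12 have 1 cluster, and the second HSPA12A cluster was under the entry level, so cluster choice could alter only HSPA1A, HSPA1B and HSPA1L. No paired analysis was possible because there is only 1 array per treatment.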
